A study of Mus musculus with 139 samples.

Results

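Mir143 and Mir145a are a pair of microRNA (miRNA) genes that lie next to each other in the mouse genome. They were taken by name, as 2 of the 6114 small RNA genes in the deposited count table, and their counts and the ratio between them were followed across every tissue. The study profiled small non-coding RNA in 11 tissues of 14 mice. All were untreated wild-type C57BL/6J animals, an inbred laboratory strain, labelled as adults 3 months old. Animals 1 to 10 are female and animals 11 to 14 are male by the column names. Libraries of animals 11 to 14 also form a sequencing pool of their own, N541, so sex, animal set and pool cannot be told apart within a tissue. In animals 1 to 10, kidney, liver, lung, pancreas and spleen are in pool N467 and bone marrow, brain, heart, intestine and muscle in pool N469, so tissues of these different pools are compared in 1 pool only within N541. A tissue had 12 to 14 libraries, each from a different animal, except that 3 libraries are labelled testis. Each of these 3 matches 2 samples by name, of which only 1 has a pool, N541, and an age. Pool and age were therefore assumed for them. The tissues were processed whole, so fewer cells of a type and less RNA per cell cannot be told apart.

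MicroRNAs are short RNAs that guide Argonaute proteins to messenger RNAs and lower their output. Mir143 and Mir145a are best known from smooth muscle, where serum response factor and its coactivator myocardin drive them and where they help to keep the cells in the contractile state. They are thought to be cut from a shared primary transcript, and they are also found in fibroblasts, pericytes and other mesenchymal cells. In the gut wall, large vessels and airways such cells form whole layers, whereas marrow holds few of them.

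By the GENCODE M21 annotation, on GRCm38 as the submitters' processing notes name it, Mir145a (ENSMUSG00000065592.2) spans chr18:61647825-61647894 and Mir143 (ENSMUSG00000065445.3) spans chr18:61649196-61649258, both on the minus strand. The annotated hairpins are 70 and 63 bases long and 1301 bases apart. The long non-coding RNA gene Carmn, known as a partner of the cluster in muscle cells, lies upstream of Mir143 on the same strand, with its annotated 3′ end 366 bases away. Bvht, another long non-coding RNA gene, lies on the opposite strand 352 bases beyond Mir145a. Counts are per hairpin gene, so the mature strands from the 2 arms of a hairpin are added together. Mir145b, annotated at the same place, held 163 counts over all libraries and at most 10 in any, and was not tested.

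The smallest library held 10255 counts, the median library 6327550 and the largest 34095704, and 8 fell below 100000. Mir143 received 42474384 counts in all and at least 193 in each library. Mir145a received 985143, and 5 libraries had fewer than 10 of them. Library Pancreas 11 stood apart, with 10255 counts in total, 81716 CPM (counts per 1000000 counts of the library) of the intestinal miRNA Mir215 against at most 1.60 in the other pancreas libraries, and 292.5 CPM of the acinar miRNA Mir216a against up to 10635. In the intestine libraries Mir215 ran from 6866 to 219548 CPM, so the markers of Pancreas 11 go against its pancreas label. It was kept under that label and enters the pancreas mean in each comparison. The pancreas results that it moves most are given with and without it. In the 3 libraries labelled testis, the 5 testis marker miRNAs summed to between 0 and 0.138 CPM, whereas other tissues reached 15.5 CPM. They are therefore called testis-labelled. In the other 10 tissues the median summed level of the tissue's own markers was above the median in the rest. Intestine libraries 5, 6, 9 and 10 gave 63.7% to 92.7% of their counts to transfer RNA, which lowers the CPM of every miRNA in them.

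Lung, intestine and spleen carried the most Mir143. The level in lung ran from 32739 to 113320 CPM of the library total, with a median of 65974 and a mean of 77675 ± 26084 (SD, n = 13). Intestine ran from 22512 to 133347 CPM with a median of 73934 and a mean of 77005 ± 40780 (SD, n = 12). Spleen ran from 29882 to 104906 CPM with a median of 61149 and a mean of 63890 ± 19482 (SD, n = 14). The 3 ranges overlapped almost entirely, and Mir143 was the third most abundant gene of the table by mean CPM in each of these tissues. Heart followed at 41965 ± 15567 CPM (SD, n = 13) and skeletal muscle at 30447 ± 12231 (SD, n = 14).

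The other tissues held less Mir143. The mean was 18856 ± 4257 CPM in kidney (SD, n = 14), 16625 ± 4207 in liver (SD, n = 13) and 16300 ± 11466 in brain (SD, n = 14). Pancreas averaged 33708 ± 56331 CPM (SD, n = 12), but 17651 ± 9330 (n = 11) without Pancreas 11, which alone held 210336 CPM. The testis-labelled libraries held 9307, 9520 and 9989 CPM. Bone marrow was lowest, from 3375 to 12694 CPM with a median of 8042, where Mir143 ranked 31st. No marrow library reached the lowest value of lung, intestine, spleen or heart.

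As a share of miRNA counts alone, which leaves out the transfer RNA, Mir143 made up 16.9 ± 7.29% in intestine (SD, n = 12), 10.7 ± 2.87% in lung (SD, n = 13) and 9.59 ± 2.43% in spleen (SD, n = 14). Bone marrow gave 1.2 ± 0.32% (SD, n = 12). On this scale intestine stood above lung, while the 3 leading tissues were the same.

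Mir145a was counted far less often than Mir143, in 134 of 134 libraries, but it followed a similar order. Intestine held 577.4 to 4149 CPM, with a median of 1789 and a mean of 2202 ± 1392 (SD, n = 12). Spleen held 1220 to 3707 CPM, with a median of 1557 and a mean of 1862 ± 785 (SD, n = 14). Heart held 1226 ± 454 CPM (SD, n = 13). Lung, at the top for Mir143, came after intestine, spleen and heart for Mir145a with 1015 ± 312 CPM (SD, n = 13). Muscle averaged 649 ± 295 CPM, pancreas 547 ± 246 (552 ± 257 without Pancreas 11), kidney 425 ± 131 and brain 344 ± 201. Bone marrow (250.1 ± 169 CPM) and liver (242 ± 110) were low, and the testis-labelled libraries held 126, 138 and 143 CPM.

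**Figure D1:**
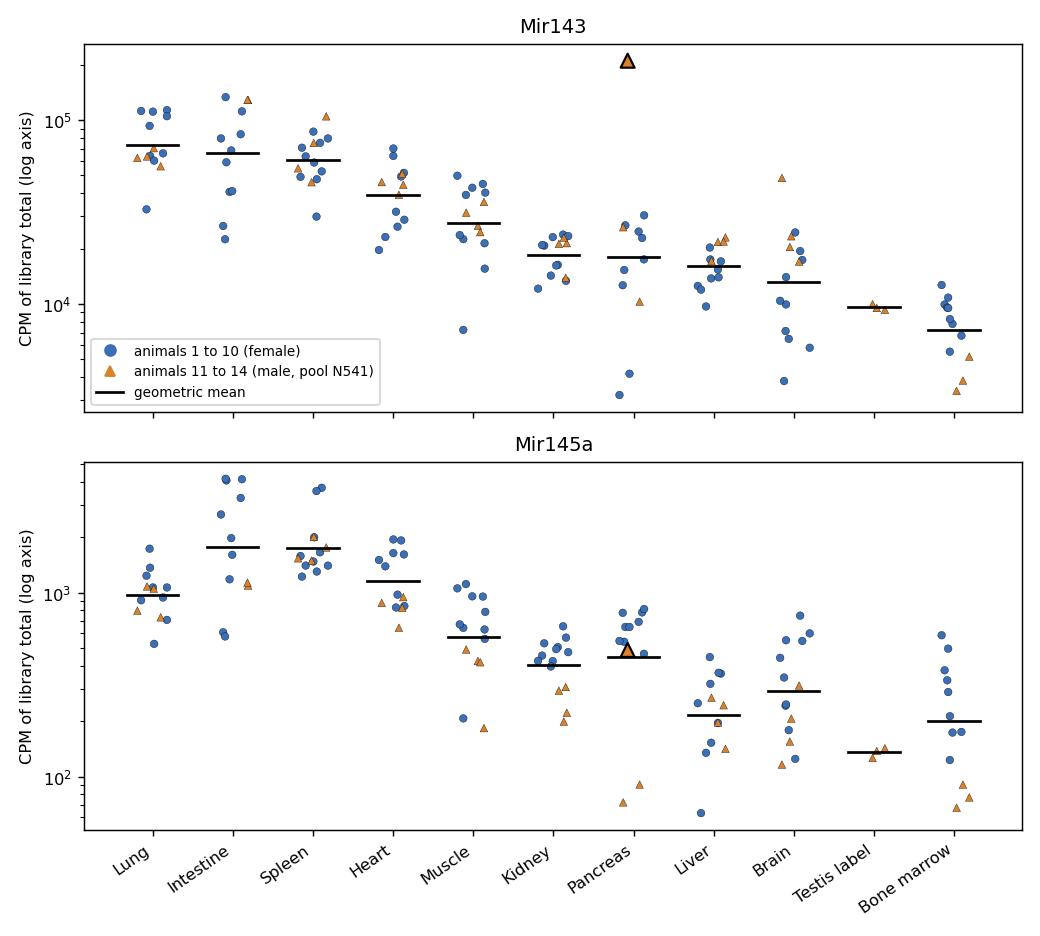
Level of Mir143 (top) and Mir145a (bottom) in each library, in CPM of the library total on a log axis, by tissue in the order of the Mir143 geometric mean (black bar). Circles are animals 1 to 10 and triangles animals 11 to 14, and the large outlined triangle is Pancreas 11 at 210336 CPM of Mir143, far above the other pancreas libraries.

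In the order of mean log2 CPM, the steps between neighbouring tissues were mostly small against their spread (permutation tests over libraries, two-sided, adjusted over 55 pairs of tissues for each gene). For Mir143, lung, intestine and spleen were not separated (adjusted p = 0.630 and 0.718), spleen exceeded heart (adjusted p = 0.00578), heart and muscle were not separated (adjusted p = 0.0720) and muscle exceeded kidney (adjusted p = 0.0178). When libraries were compared within animals, the steps from spleen to heart (adjusted p = 0.0546) and from muscle to kidney (adjusted p = 0.0924) were lost and that from heart to muscle passed (adjusted p = 0.00336). Below kidney, no neighbouring tissues differed beyond their spread, and without Pancreas 11 pancreas moved below liver. For Mir145a, intestine and spleen were not separated (adjusted p = 0.950), spleen exceeded heart (adjusted p = 0.00723), heart and lung were not separated (adjusted p = 0.246) and lung exceeded muscle (adjusted p = 0.00622). Of the 55 pairs of tissues, 41 differed for Mir143 and 42 for Mir145a, and 42 for each without Pancreas 11. Compared within animals, 30 and 35 pairs differed. Pairs with the testis-labelled libraries share at most 3 animals, so their within-animal p could not fall below 0.25 and none could pass. Part of the fall in these counts was therefore fixed in advance.

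Each tissue was then compared with the mean of the other 10 by edgeR's quasi-likelihood test, fitted to 1268 genes, with Benjamini-Hochberg adjustment over all of them and a call at an adjusted p below 0.05 and a log2 fold change of at least 1 in size. Both genes were higher in 3 tissues: lung, intestine and spleen. Mir143 was higher in lung by a log2 fold change of 1.83 (SE 0.25, adjusted p = 4.23e-10), in intestine by 1.61 (SE 0.25, adjusted p = 1.28e-08) and in spleen by 1.49 (SE 0.24, adjusted p = 4.96e-08). Mir145a was higher in spleen by 2.10 (SE 0.20, adjusted p = 4.10e-18), in intestine by 1.71 (SE 0.22, adjusted p = 3.36e-11) and in lung by 1.15 (SE 0.21, adjusted p = 1.67e-06). Of all genes tested, 17.7% were called higher in lung, 22.5% in intestine and 41.9% in spleen, so a call in spleen was shared by many genes. The median log2 fold change of all genes was -0.17 in lung, -0.31 in intestine and 0.71 in spleen.

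Both genes were lower in bone marrow and, with library totals, in the testis-labelled libraries. In bone marrow the log2 fold change was -1.98 for Mir143 (SE 0.31, adjusted p = 1.49e-08) and -1.75 for Mir145a (SE 0.26, adjusted p = 3.89e-09), where 11.5% of genes were called lower and the median of all genes was 1.11. In the testis-labelled libraries it was -1.96 for Mir143 (SE 0.55, adjusted p = 0.00537) and -1.64 for Mir145a (SE 0.47, adjusted p = 0.00562), with 12% of genes called lower, 8.83% higher and a median of -0.42. Neither gene was called in the testis-labelled libraries with TMM factors or either use of DESeq2, nor Mir145a with miRNA totals or no filter. With library totals Mir145a, and not Mir143, was called lower in liver (log2 fold change -1.13, SE 0.24, adjusted p = 4.20e-05) and in brain (-1.09, SE 0.23, adjusted p = 1.69e-05), where 23.9% and 9.94% of genes were called lower, 8.44% and 46.7% higher, and the medians were -0.74 and 0.89. Mir143 had -0.69 in liver and -0.92 in brain, under the size asked for. In brain the split between the members depended on the setting: Mir143 was called lower with TMM factors (-1.70), DESeq2 size factors (-2.19) and miRNA totals (-1.22), and Mir145a was not called without the pool term (-0.80). In liver Mir145a was not called with TMM factors (-0.94). Whether the members differ in these tissues was tested only through their ratio. Heart had 0.63 for Mir143 and 0.97 for Mir145a, just under the size asked for, where 11.6% of genes were called higher and 18.1% lower. Mir145a was called higher in heart with TMM factors (1.08), with DESeq2 size factors (1.32) and without the pool term (1.2). Kidney, muscle and pancreas were not called for either gene with library totals. In muscle the values were 0.14 and -0.095, and 13.3% of all genes were called higher and 25.8% lower there.

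Scaling decided several calls. With TMM factors, which set the bulk of genes level between libraries, the log2 fold change of Mir143 in spleen was 0.72 and no longer called, while that of Mir145a there stayed called. In kidney both genes turned from slightly lower to higher (0.51 for Mir143 and 0.68 for Mir145a), and in pancreas both turned lower (-0.86 and -0.78). Mir143 in pancreas also fell below 0 with library totals when only Pancreas 11 was left out. In muscle Mir145a turned from -0.095 to 0.63 with TMM factors, and Mir143 from 0.14 to -0.10 with miRNA totals. With TMM factors 28.9% of genes were called higher and 18.6% lower in bone marrow, against 51.0% and 11.5% with library totals. In spleen the pair was 20.4% and 14.4% with TMM factors against 41.9% and 8.2%, and in kidney 14.3% and 19.2% against 5.28% and 40.1%. In intestine TMM factors gave 34.7% higher and 10% lower against 22.5% and 18.1%, and in pancreas 11.3% and 22% against 17.7% and 10.3%. In brain they gave 36.7% and 22.6% against 46.7% and 9.94%, in muscle 19.2% and 10.7% against 13.3% and 25.8%, and in the testis-labelled libraries 14.2% and 6.86% against 8.83% and 12%. Lung and intestine for Mir143, intestine and spleen for Mir145a and bone marrow for both kept their calls with library totals, miRNA totals, TMM and DESeq2 size factors. Lung for Mir145a kept its call under those 4 scalings, but its log2 fold change was 0.56 in animals 1 to 10 alone, 0.90 without the pool term and 0.99 without the testis-labelled libraries, none of them a call.

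**Figure D2:**
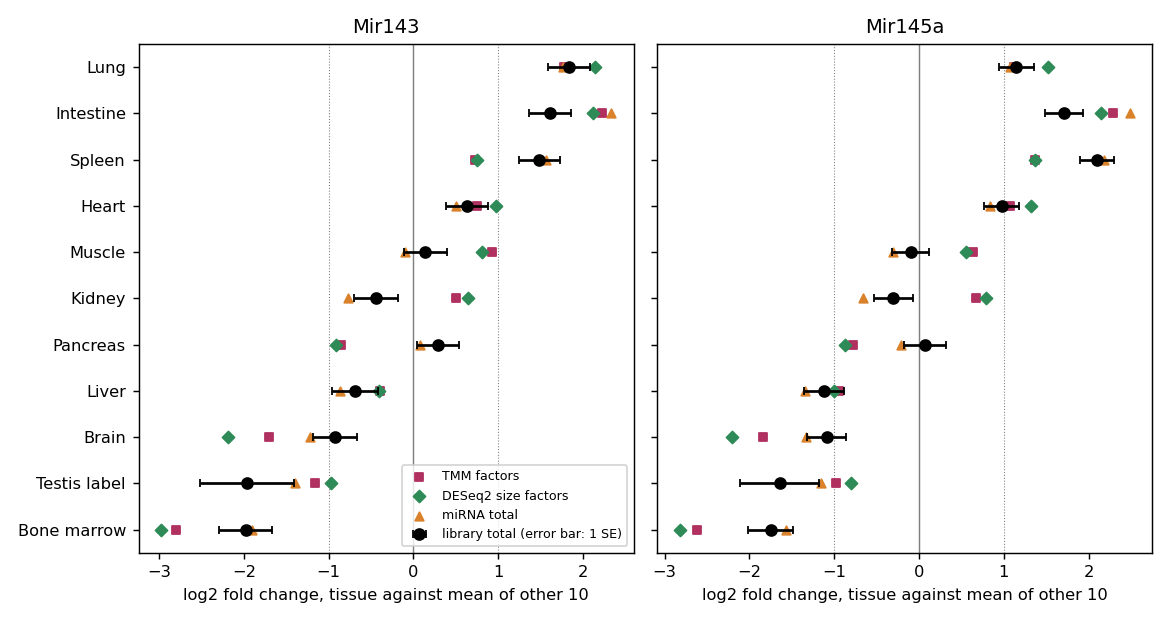
Log2 fold change of Mir143 (left) and Mir145a (right) in each tissue against the mean of the other 10, with library totals (black, bar of 1 SE), TMM factors, DESeq2 size factors and miRNA totals. Dotted lines mark the size of 1 asked for in a call, and lung, intestine and bone marrow stay beyond it on all 4 scales, while kidney, pancreas and muscle cross 0.

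The ratio of Mir143 to Mir145a counts within a library does not depend on the library total or on a scaling factor. It is a ratio of counts per gene, and dividing by the annotated hairpin lengths would multiply every ratio by 1.11. Adapter ligation can favour one miRNA over another, so the ratio is read here only between libraries. Means and tests use the log2 ratio after adding 0.5 to each count, in the 129 libraries with at least 10 counts of each gene. Over all libraries the plain ratio ran from 5.87, in Pancreas 6, to 431, in Pancreas 11, whose Mir145a rests on 5 counts.

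Geometric mean ratios were 75.5 in lung (n = 13), 70.9 in the testis-labelled libraries (n = 3) and 68.9 in liver (n = 12). Muscle (48.0, n = 14) and kidney (45.5, n = 14) were in between. Means in brain (38.1, n = 13), intestine (37.1), bone marrow (36.2), spleen (34.9) and heart (34.1) were close together, and pancreas was lowest at 21.5 (n = 9). That rank rests on the minimum of 10 counts, which left out the 3 pancreas libraries of animals 11 to 14, with plain ratios of 431, 114 and 361. With all 12 libraries the pancreas mean was 38.3, above intestine, bone marrow, spleen and heart. The 9 pancreas libraries used ran from 5.87 to 41.2 with a median of 29.3, and Pancreas 6 (5.87) and Pancreas 9 (6.43) were the lowest. The brain mean left out Brain 11, with a plain ratio of 417 on 2 counts of Mir145a, and was 44.5 with all 14 libraries. The brain libraries used ran widely, from 9.65 to 196. Lung and intestine had nearly equal Mir143 but differed in the ratio (permutation test, adjusted p = 0.0218) and in Mir145a (adjusted p = 0.0159). Within animals neither difference passed (exact permutation test over animals, adjusted p = 0.128 and 0.0987), and in animals 11 to 14 the order was the other way, with a ratio of 116 in intestine and 69.7 in lung and a mean Mir143 level of 128743 CPM in intestine (n = 2) and 63095 in lung (n = 4). Individual lung libraries ran from 26.5 to 148 with a median of 76.5, and intestine libraries from 14.5 to 118 with a median of 33.3, so the ranges overlapped.

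Against the other libraries, the log2 ratio was higher in lung by 0.91 (permutation test, two-sided, adjusted p = 0.00533 over 11 tissues) and in liver by 0.76 (adjusted p = 0.0220), and lower in pancreas by -1.06 (adjusted p = 0.00533). The other 8 tissues did not pass. These tests take no account of pool, and the 3 tissues are all in pool N467 in animals 1 to 10. Within pool N467 alone, lung (1.18, adjusted p = 0.00437) and pancreas (-1.13, adjusted p = 0.00437) passed and liver did not (0.60, adjusted p = 0.196), in permutation tests over its 5 tissues. The lung difference was -0.019 in pool N541 alone. The liver difference no longer passed in animals 1 to 10 alone (0.75, adjusted p = 0.0613) or in libraries of at least 1000000 counts (0.45). In pancreas, where the median total was 100239 counts, the difference was -0.27 with all 12 libraries and -0.78 (adjusted p = 0.103) when compared within animals. Of 55 pairs of tissues, 14 differed in the ratio, and 10 when compared within animals. Pairs with the testis-labelled libraries again shared too few animals to pass within animals. No neighbours in the order of the ratio differed beyond their spread.

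**Figure D3:**
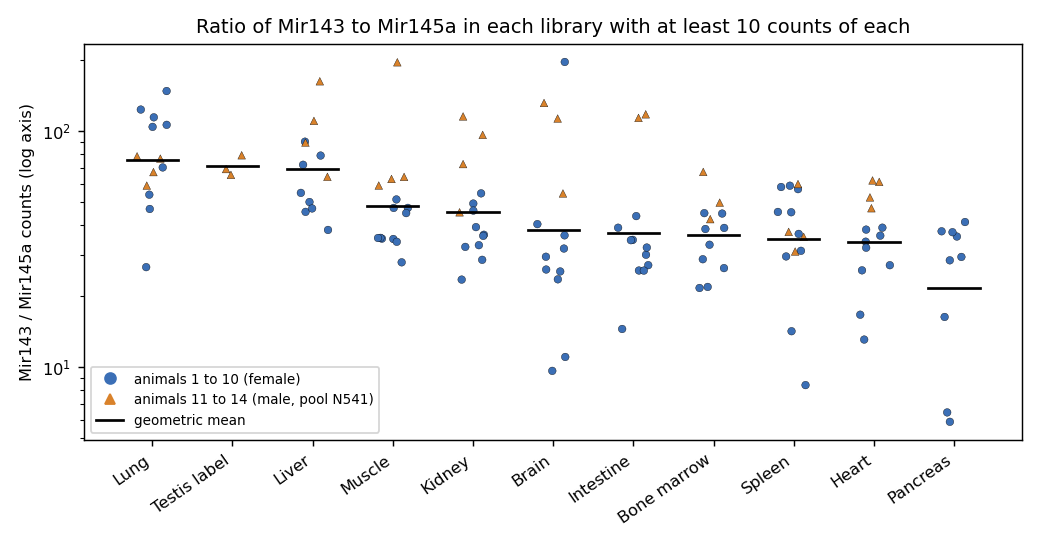
Ratio of Mir143 to Mir145a counts in each library with at least 10 counts of each gene, on a log axis, by tissue in the order of the geometric mean (black bar). Triangles (animals 11 to 14) lie above all circles (animals 1 to 10) in heart, intestine and muscle, but among them in lung. In spleen they also lie among the circles, except Spleen 11 at 59.7, just above the highest circle at 58.7.

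The ratio also differed between the animal sets, a comparison added after the data were seen. The ratio and both levels were taken here from libraries with at least 10 counts of each gene, which left out pancreas. Averaged over its tissues, each animal's deviation of the log2 ratio from the tissue means was between -0.81 and -0.080 in animals 1 to 10 and between 0.15 and 0.76 in animals 11 to 14, so the sets did not overlap. The means were -0.47 ± 0.20 (SD, n = 10) and 0.42 ± 0.27 (SD, n = 4), a difference of 0.90 on the log2 scale, or 1.86-fold (exact permutation test, two-sided, p = 0.000999, the smallest this design allows, adjusted p = 0.0030 over 3 quantities). Mir145a was lower in animals 11 to 14 by -0.70 (exact permutation test, adjusted p = 0.0045), again with no overlap. For Mir143 the difference was 0.19 (exact permutation test, adjusted p = 0.159), and it passed with TMM factors (0.30). Sex and pool N541 differ together between the sets, and their parts in the result cannot be told apart.

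**Figure D4:**
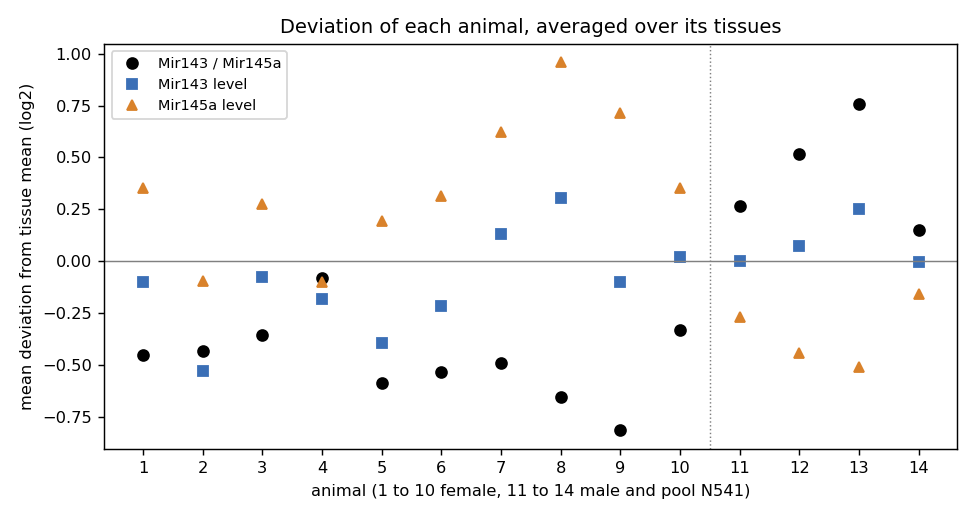
Mean deviation of each animal from the tissue means, in log2 units, for the ratio (circles), Mir143 (squares) and Mir145a (triangles). It covers the 9 tissues where both animal sets have libraries with at least 10 counts of each gene, which leaves out pancreas. The 4 animals right of the dotted line have the highest ratios and the lowest Mir145a values.

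By tissue, the ratio was higher in animals 11 to 14 in 6 of 9 tissues (exact permutation tests, two-sided, adjusted over the 9). In muscle it was 82.5 against 38.7 (adjusted p = 0.0090), in kidney 77.5 against 36.8 (adjusted p = 0.0180) and in heart 55.2 against 27.5 (adjusted p = 0.0210). In intestine it was 116 against 29.5 (adjusted p = 0.0341), with 2 libraries in the smaller group. Liver (100.1 against 57.1) and bone marrow (52.1 against 32) had an adjusted p of 0.0409 each. Values of the sets did not overlap in heart, intestine and muscle. Calls were lost when 1 animal was left out: those in bone marrow, heart, kidney and liver without replicate 13, in bone marrow, heart and liver without replicate 14, in liver without replicate 12 and in bone marrow without replicate 11. Muscle kept its call in each case. Intestine, where only animals 13 and 14 make up the smaller group, kept its call without replicate 11 or 12. It could not be tested without replicate 13 or 14. Brain missed the threshold (92.8 against 29.1, adjusted p = 0.0584). In lung the ratio was 69.7 against 78.2 and in spleen 39.6 against 33.1 (adjusted p = 0.708 for each).

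Depth moved with the sets, but not in 1 direction. The median total in animals 11 to 14 against 1 to 10 was 988947 against 13328461 counts in kidney and 24266660 against 5713845 in muscle, and the ratio was higher in animals 11 to 14 in both. Correlations of the log2 ratio with the log10 total are given as a description. Over all libraries used, the correlation was -0.85 in kidney, -0.81 in intestine and -0.81 in brain. It ran from -0.56 in liver to 0.28 in pancreas in the other tissues tested. Within animals 1 to 10, it was 0.25 in kidney, -0.23 in intestine, -0.73 in brain and -0.74 in muscle. Kidney totals in that set ran only from 9393931 to 14943881. In animals 11 to 14, the kidney ratio was 115 at 301536 counts and 45.3 at 2663695. Depth was not tested as a cause of the difference between sets. In libraries of at least 1000000 counts, the difference per animal was 0.83, and that in kidney 0.64 and no longer called. Of the 19 libraries with a ratio over 100, 12 came from animals 11 to 14 and 11 had under 1000000 counts.

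In the edgeR model of tissue by animal set, each member was called in brain, bone marrow or pancreas and in no other tissue. Mir145a was lower in animals 11 to 14 in bone marrow, where animals 11, 13 and 14 held 67.8, 77.1 and 90.5 CPM and animals 1 to 9 held 123 to 586.1 with a median of 288. The groups did not overlap, and the log2 fold change was -1.97 (SE 0.49, adjusted p = 0.00068), in a tissue where 32.2% of genes were called lower and the median of all genes was -1.05. With DESeq2 size factors it was -0.78 and not called. In pancreas animals 11, 12 and 13 held 487.6, 90.6 and 72.5 CPM of Mir145a and animals 1 to 9 held 465 to 814, so Pancreas 11 alone lay among them. Mir145a was called lower there (log2 fold change -1.83, SE 0.57, adjusted p = 0.0202; 5.99% of genes called lower, median of all genes -0.99). These 3 libraries held 5, 6 and 1 counts of Mir145a, and the call was lost without replicate 12 (-1.30), without replicate 13 (-1.45) and with no filter, while without Pancreas 11 the value was -2.95. In brain the level of Mir143 was 48486, 20430, 23376 and 17009 CPM in animals 11 to 14, and 3816 to 24518 with a median of 10186 in animals 1 to 10. The sets overlapped, and Mir143 was higher in animals 11 to 14 by 1.2 (SE 0.39, adjusted p = 0.0212; 6.55% of genes called higher, median -0.50), which was not called without replicate 11 (0.77) or with TMM factors (0.64). In pancreas Mir143 was higher by 2.23 (SE 0.42, adjusted p = 4.11e-05; 4.65% of genes called higher), but by 0.056 without Pancreas 11. The effect of animal set on Mir143 differed between tissues (edgeR interaction test, adjusted p = 0.00055, with 36.5% of genes passing), and did not without replicate 11 (adjusted p = 0.362), while without Pancreas 11 alone it was 0.0415.

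The share of all genes called in that model gives the background for the other tissues, where neither member was called. Higher in animals 11 to 14 were 3.31% in heart, 2.44% in intestine, 4.18% in kidney, 4.73% in liver, 7.57% in lung, 6.78% in muscle, 4.18% in spleen and, where only Mir145a was called, 8.12% in bone marrow. With TMM factors 14.7% were higher and 14.5% lower in bone marrow. With library totals 32.2% were lower there, and lower elsewhere were 11% in brain, 5.91% in heart, 12.5% in intestine, 17.4% in kidney, 8.99% in liver, 18.5% in lung, 13.2% in muscle and 26% in spleen.

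Between animals of 1 tissue, the levels of the members moved together in bone marrow. There Pearson's r of log2 CPM was 0.96 and Spearman's rho 0.99 over 12 libraries (permutation p = 1e-05 for each, the smallest the resamples give, adjusted p = 1e-04 over 10 tissues). It was 0.98 without the 2 libraries farthest from the median of Mir143 and 0.97 in animals 1 to 9, and 0.81 with the miRNA total as the denominator. In intestine r was 0.61 with rho 0.52 (permutation adjusted p = 0.127 and 0.301) and fell to 0.16 without the 2 farthest libraries, though it was 0.93 in animals 1 to 10. In muscle r was 0.60 with rho 0.61 (permutation adjusted p = 0.127 and 0.117), 0.40 without the 2 farthest and 0.96 in animals 1 to 10, and with the miRNA total as denominator rho was 0.72 (permutation adjusted p = 0.0261). Spleen had r = -0.44 with rho -0.15 (permutation adjusted p = 0.292 and 0.821). In the other tissues tested r ran from -0.17 in brain to 0.36 in pancreas, and none passed. The members share the library total, which moves both CPM values the same way.

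The closest profile to each member over the 11 tissue means of log2(CPM + 1) was that of the other. Their r was 0.94, and 0.70 over the 134 libraries, given as a description. Among the remaining genes, the 5 most like Mir143 were Mir452 (r = 0.80), Mir199b (0.67), a transfer RNA gene (0.65), Mir224 (0.63) and the small nuclear RNA gene Gm26177 (0.61). The 5 most like Mir145a were Mir452 (0.79) and 4 transfer RNA genes (0.67 to 0.76). Mir452 averaged at most 1.05 CPM in any tissue, so its profile rests on few counts. Mir199b, a mesenchymal miRNA, averaged 660 ± 369 CPM in heart (SD, n = 13), 367 ± 167 in lung (SD, n = 13) and 49.5 ± 19.1 in bone marrow (SD, n = 12). Mir224 was highest in lung at 17.5 ± 4.89 CPM (SD, n = 13).

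Mature strands of these 3 miRNAs, 1 of Mir199b and both of the others, are shown because their tissue profiles were the nearest among miRNAs. Sequences are from RefSeq (GRCm38.p6), 5′ to 3′, with the seed, bases 2 to 8, in capitals.
miR-199b-3p: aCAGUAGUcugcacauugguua
miR-224-5p: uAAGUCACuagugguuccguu
miR-224-3p: aAAUGGUGcccuagugacuaca
miR-452-5p: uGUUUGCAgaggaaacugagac
miR-452-3p: uCAGUCUCaucugcaaagaggu
No seed was shared between these 5 strands.

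The companion list of 13 smooth muscle and mesenchymal miRNAs was followed over the same tissues, with 12 members tested. In lung 9 of 12 were higher and 0 lower, against 17.7% and 13.5% of all genes. The median log2 fold change was 1.45 against -0.17 for all genes. The members higher there included Mir490 (3.55), Mir195a (2.03), Mir497a (1.95) and Mir214 (1.85). In heart 8 of 12 were higher and 0 lower (median 1.56 against -0.45), where 11.6% of all genes were called higher, led by Mir490 (6.90) and Mir199b (2.74). Mir143 and Mir145a were not called there with library totals, but Mir145a was with TMM or DESeq2 size factors. In brain 7 companions were higher and 5 lower (median 1.91 against 0.89), against 46.7% and 9.94% of all genes. Both Mir143 and Mir145a had values below 0 there. Under the other scalings 6 or 7 companions were higher and 5 lower in brain. Lung and heart had at least as many higher companions, and 0 lower, with miRNA totals, TMM and DESeq2 size factors.

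In intestine the members and most companions were called in opposite directions. There Mir143 and Mir145a were higher. Of 12 companions, 1 was higher and 7 lower (median -1.15 against -0.31), against 22.5% and 18.1% of all genes. The higher one was Mir490 (4.19), a miRNA hosted by a muscarinic receptor gene of smooth muscle, at 78.4 ± 58.0 CPM (SD, n = 12). The count was 3 higher and 3 lower with TMM factors, against 34.7% and 10% of all genes. The number of companions called in intestine thus depended on scaling. Their median stayed below 0 with TMM factors (-0.69 against 0.22 for all genes). It was also below 0 with DESeq2 size factors (-0.83 against 0.07) and miRNA totals (-0.57 against 0.46). No test compared the members with the list. In spleen 3 companions were higher and 1 lower, against 41.9% and 8.2% of all genes. With TMM factors 0 were higher and 4 lower, against 20.4% and 14.4% of all genes. In bone marrow 8 were lower and 0 higher (median -1.24 against 1.11), against 11.5% and 51% of all genes. Under the other scalings 7 to 11 were lower.

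The 6 striated muscle miRNAs had their highest median log2 fold changes in skeletal muscle and heart, and 4 were also higher in lung. In brain 2 and in bone marrow 1 were higher, against 46.7% and 51% of all genes. Several of the 6, like some companions, come from near-identical gene copies between which reads may be split, so values of single copies are uncertain. All 6 were higher in heart (median 9.06) and in muscle (median 10.1), against 11.6% and 13.3% of all genes, with Mir133a-1 at 9.06 in heart and 10.1 in muscle. None was higher in intestine or spleen. In spleen 4 were lower under the 4 scalings, and in intestine 2 were lower with library totals but 0 with the other 3. With library totals 8.2% of all genes were called lower in spleen and 18.1% in intestine. In lung 4 were higher, against 17.7% of all genes, with 1.33 for Mir1a-1 and 1.05 for Mir133a-1, and 2 with miRNA totals. Markers of other cell types ran as follows in the tissues with most Mir143: the 2 endothelial miRNAs summed to a median of 8192 CPM in lung, 949 in intestine and 5455 in spleen, the 5 epithelial miRNAs to 8987, 12734 and 831 CPM, and the 3 blood cell miRNAs to 19713, 1631 and 51018 CPM. Their part in the levels of Mir143 and Mir145a was not tested.

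**Figure D5:**
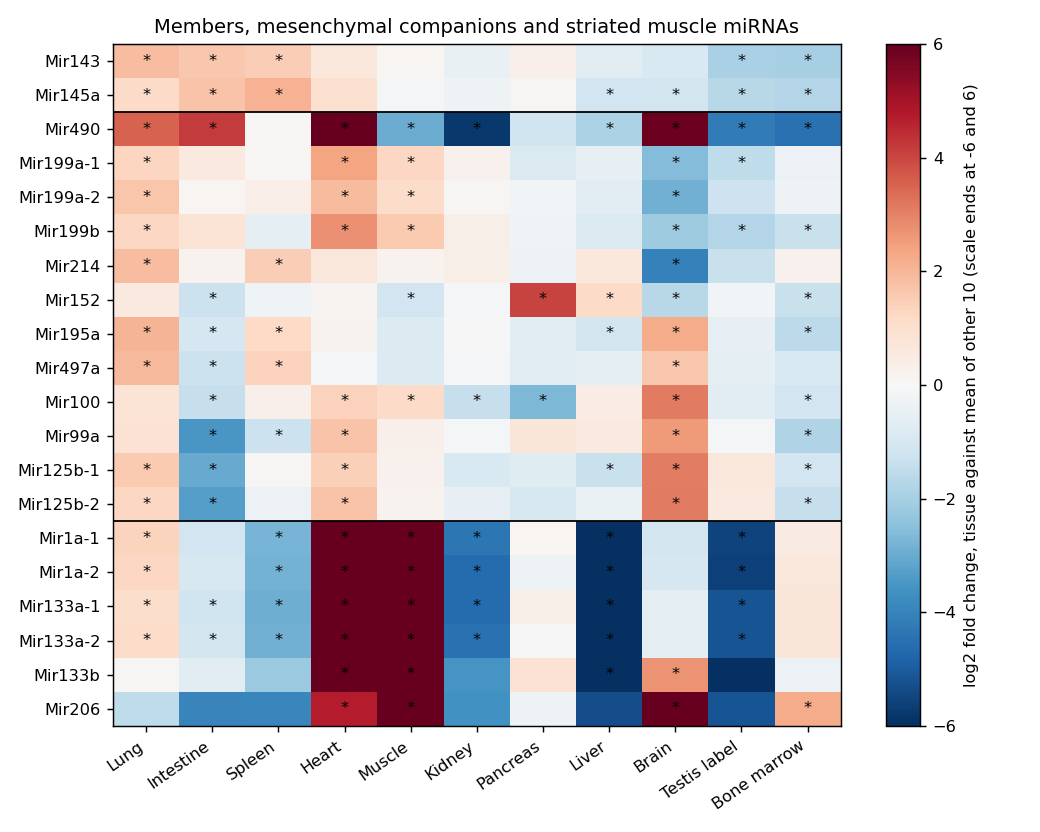
Log2 fold change of each tissue against the mean of the other 10 for Mir143 and Mir145a (top), the tested companions (middle) and the striated muscle miRNAs (bottom), with colours ending at -6 and 6 and a star for a call. In intestine the members are higher while most called companions are lower.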

How the data were processed

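The table deposited by the authors holds whole-number, unnormalised counts of reads for each small RNA gene in each library. Per the labels' protocols, RNA came from frozen tissue (Qiagen miRNeasy), and libraries from the TruSeq small RNA kit of Illumina. STAR 2.5.1, featureCounts and the builds mm10 and GRCm38 are named per the submitters' processing notes. How strand and multi-mapping reads were treated is not stated there. Of 139 listed samples, 134 columns were analysed and 5 samples were not analysed here. The 3 testis columns were matched to an animal only, each animal having 2 samples. Their pool was taken as N541, the only pool named for either sample. No column was left unused.

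CPM is counts per 1000000 counts of the library. Tests used edgeR 4.0.16 in R 4.3.3 (filterByExpr by tissue, minimum count 10, offset the library total, model of tissue and pool), and DESeq2 1.42.0 as an alternative. Ratios and correlations used permutation tests (100000 resamples, or exact) in Python 3.11.15 with scipy 1.17.1. Replicate numbers are animals, which pairs libraries of different tissues by animal. Named genes were the members, the companion and striated muscle lists, and the 5 genes whose tissue means of log2(CPM + 1) correlated best with each member. Members and lists were chosen with earlier results of these data known. Mir497a was matched through a RefSeq synonym. Scripts were tested on simulated data. Positions are from GENCODE M21. Libraries of 1 tissue are from separate animals.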

Additional observations from a re-analysis of the deposited data

Results flagged for a closer look

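In groups of 4 to 10 libraries, a value far from the others was looked for in 50 groups, of which chance alone would pick out about 1 in 20, and 2 were picked out. Brain 10 had a ratio of Mir143 to Mir145a of 196, where the other brain libraries of animals 1 to 10 ran from 9.65 to 40.4, in a library of 592837 counts. Muscle 13 also had a ratio of 196, where the other muscle libraries of animals 11 to 14 ran from 58.8 to 64.0, in a library of 2469371 counts.

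The effect of animal set on Mir143 differed between tissues by edgeR's interaction test (adjusted p = 0.00055). It was no longer called without replicate 11 (adjusted p = 0.362) or with TMM factors (adjusted p = 0.106). Without library Pancreas 11 alone the adjusted p was 0.0415.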

How the results depend on the processing

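Values are log2 fold changes unless named otherwise, and the cause of each change was not tested. For each tissue against the others, TMM factors, DESeq2 size factors and the DESeq2 Wald test gave, in that order, for Mir143 in kidney 0.51, 0.64 and 0.64, in pancreas -0.86, -0.91 and -0.91, in brain -1.70, -2.19 and -2.19, in spleen 0.72, 0.75 and 0.75 and in testis-labelled libraries -1.16, -0.97 and -0.97. For Mir145a they gave in kidney 0.68, 0.79 and 0.80, in muscle 0.63, 0.55 and 0.53, in pancreas -0.78, -0.87 and -0.78, in heart 1.08, 1.32 and 1.30 and in testis-labelled libraries -0.98, -0.80 and -0.84, and in liver TMM gave -0.94 and the Wald test -0.97. With miRNA totals, Mir143 had -0.10 in muscle and -1.22 in brain, and Mir145a -0.22 in pancreas and -1.16 in testis-labelled libraries, where no filter gave -1.64 and no longer a call. Without the pool term Mir145a had 0.19 in muscle, -0.057 in pancreas, 1.2 in heart, -0.80 in brain and 0.90 in lung. In pool N541 alone, Mir143 had -0.087 in muscle and 1.53 in pancreas, and Mir145a 0.10 in muscle, -1.16 in pancreas, 1.33 in heart, -0.83 in brain and -0.81 in liver. In animals 1 to 10 alone, Mir143 had -0.70 in pancreas and -1.32 in brain, and Mir145a 0.021 in muscle, -0.21 in pancreas, 1.01 in heart, -0.99 in brain and 0.56 in lung. Without the testis-labelled libraries Mir143 had -0.058 in muscle and -1.13 in brain, and Mir145a -0.097 in pancreas and 0.99 in lung. Mir143 in pancreas was -0.45 in libraries of at least 100000 counts and -0.66 without Pancreas 11. Leaving out 1 testis-labelled library kept it above 0, at no more than 0.30.

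For animals 11 to 14 against 1 to 10, TMM factors gave Mir143 -0.12 in kidney, 0.58 in muscle and 0.64 in brain, and Mir145a 0.043 in lung, 0.22 in spleen and -1.13 in kidney. DESeq2 size factors and the Wald test gave Mir143 0.0032 and 0.013 in bone marrow, 0.15 and 0.16 in lung, 0.59 and 0.59 in muscle and 0.50 and 0.48 in brain, and Mir145a 0.30 and 0.30 in lung, 0.59 and 0.59 in spleen, -1.25 and -1.18 in brain and -0.78 and -0.77 in bone marrow; the Wald test called Mir143 in intestine (1.06). miRNA totals gave Mir143 0.019 in bone marrow, -0.095 in intestine, -0.056 in kidney and 0.069 in muscle, and Mir145a 0.039 in lung, -2.11 in intestine, -1.11 in kidney and -0.85 in bone marrow. With no filter Mir143 in brain (1.2) and Mir145a in pancreas (-1.83) were not called. Leaving out 1 animal of 11 to 14, or Pancreas 11, gave Mir143 -1.32 to -1.0 in bone marrow, 0.77 to 1.37 in brain, -0.16 to 0.026 in muscle, 0.056 to 2.75 in pancreas and -0.066 to 0.35 in spleen, and Mir145a -2.95 to -1.30 in pancreas. The interaction's adjusted p was then 0.00016 to 0.362 for Mir143 and 0.018 to 0.56 for Mir145a. With TMM factors it was 0.106 and 0.014, and with DESeq2 size factors 0.0023 for Mir145a.

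For the log2 ratio, pool N541 alone gave 0.43 in brain, 0.76 in intestine, -0.019 in lung, -0.94 in spleen and 0.57 in liver, and animals 1 to 10 alone 0.75 in liver. Pool N467 alone gave 0.60 in liver and -0.18 in kidney, and pool N469 alone 0.046 in bone marrow. Libraries of at least 1000000 counts gave -0.072 in kidney and 0.45 in liver, and all libraries -0.27 in pancreas. With animals as a replicate block, the ratio was -0.78 in pancreas and -0.079 in testis-labelled libraries, and the block changed no other call of a tissue's level or ratio. Between animal sets, all libraries gave 2.13 in brain and 0.63 in liver, libraries of at least 1000000 counts 0.70 in bone marrow and 0.64 in kidney, and leaving out 1 animal of 11 to 14 gave 0.52 to 0.85 in bone marrow, 0.95 to 1.08 in heart, 0.89 to 1.33 in kidney and 0.58 to 1.02 in liver. The alternatives for the ratio between animal sets and per animal, the minimum of 1000000 counts, pools N467 and N469 alone, and leaving out Pancreas 11 between animal sets were chosen after seeing the data. The per-animal Mir143 difference was 0.35 with all libraries and 0.30 with TMM factors. The correlation in lung was -0.20 with miRNA totals against 0.036. Depth limits the ratio most in pancreas, where 3 of 12 libraries had under 10 counts of Mir145a.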
